A study of Rattus norvegicus with 20 samples.

Results

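The 10 genes described here, which make, lengthen or desaturate fatty acids, were read in rat dorsal root ganglia (DRG), the sensory ganglia beside the spinal cord. They were taken by symbol from the count file: Fads1, Fads2, Elovl2, Elovl5, Elovl6, Scd, Scd2, Fasn, Acaca and Srebf1. These 10 genes occupied 11 of 39747 rows, because Elovl5 had a second, short row. Bulk poly-A RNA-seq was made from 20 libraries of 14 rats in 6 groups. All rats were female Sprague-Dawley, 8 to 10 weeks old in the study's methods, and ate a soy oil diet based on AIN-93G (SOD) or a fish oil diet (FOD) for 4 weeks before surgery. Surgery on the left sciatic nerve was chronic constriction injury (CCI), with loose ligatures, or sham exposure (CT), and both diets continued afterwards. The left DRG gave SOD-CT (n = 4), FOD-CT (n = 3), SOD-CCI (n = 3) and FOD-CCI (n = 4). The right, contralateral DRG of 3 SOD-CCI and 3 FOD-CCI rats gave SOD-CCI-contra and FOD-CCI-contra. The paper places collection of the sequenced DRG 1 week after CCI, while diets are also said to have continued for 4 weeks after surgery. The injury comparison is dated only by that statement of the paper.

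Fatty acid synthase (Fasn) builds palmitate from malonyl-CoA, which acetyl-CoA carboxylase (Acaca) supplies. Elovl6 lengthens palmitate to stearate, and the stearoyl-CoA desaturases Scd and Scd2 put in the first double bond. Fads1 and Fads2 are the delta-5 and delta-6 desaturases that, with the elongases Elovl5 and Elovl2, turn dietary essential fatty acids into arachidonic acid, EPA and DHA. Srebf1 encodes SREBP-1, a transcription factor that drives many of these genes in liver, where polyunsaturated fatty acids are known to lower its activity. In peripheral nerve, Schwann cells use the same pathway to make myelin lipid.

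Total counts ran from 22547190 to 54437581 per library. In the median library, 8 of 8 DRG neuron markers stood above 1 CPM (a gene's counts per 1000000 counts of its library). Their sum was 3162 CPM in FOD-CCI-contra replicate 1, where 2 of them were at 0. It was 4591 CPM in SOD-CT replicate 1, 8708 CPM in FOD-CT replicate 1 and 12341 to 19404 CPM elsewhere. The part of these low sums in the members' values was not tested. Replicate 1 in each of the FOD-CT, FOD-CCI and FOD-CCI-contra groups stood apart: the summed level of 8 oligodendrocyte markers (4 exceeded 1 CPM in the median library) was 2055 to 2710 CPM there and 13.7 to 177 CPM in the other 17 libraries. Olig1, a defining marker of that lineage, was at 0 in 13 of 20 libraries. The 4 spinal cord astrocyte markers summed to 1454 to 3647 CPM in these libraries and to 57.0 to 142 CPM in the others. The 2 left libraries come from different rats, and the FOD-CCI and FOD-CCI-contra ones from the same rat. SOD-CT replicate 1 stood apart in another way, with 89861 CPM summed over 8 skeletal muscle markers against at most 20650 CPM, in FOD-CT replicate 2, elsewhere. Adipocytes, which carry high levels of several of these genes, were barely represented: 2 of 6 adipocyte markers were above 1 CPM in the median library, Lep was at 0 in 18 libraries and Plin1 in 16. The summed adipocyte level was 1.83 to 53.4 CPM outside SOD-CT replicate 1, where it was 197 CPM. In bulk tissue, fewer cells of a type and less RNA per cell cannot be told apart.

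All 10 genes were detected in every library, with at least 111 counts. Levels between genes were compared per length, as FPKM (fragments scaled to the length of the gene model and to depth). Scd2 was the highest, with a median of 1039 FPKM and a range of 529 to 1716 FPKM over 20 libraries. Its range overlapped that of no other member, and it exceeded Elovl5, the next gene, in 20 of 20 libraries. Elovl5 followed at a median of 119.6 FPKM, Scd at 93.0, Fads2 at 76.1, Fads1 at 75.8, Elovl2 at 55.8 and Fasn at 44.2 FPKM. Srebf1 (19.3 FPKM), Elovl6 (17.1 FPKM) and Acaca (9.51 FPKM) were the lowest. All neighbours in this order below Scd2 had overlapping ranges. Fads2 and Fads1 could not be ordered, since Fads2 was higher in 10 of 20 libraries, whereas Fasn exceeded Srebf1 and Elovl6 exceeded Acaca in 20 of 20. The Elovl5 gene model counted here was 651 bases long and that of Fads2 1617 bases, against 9139 for Fasn, and a short model raises FPKM for the same reads.

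**Figure D1:**
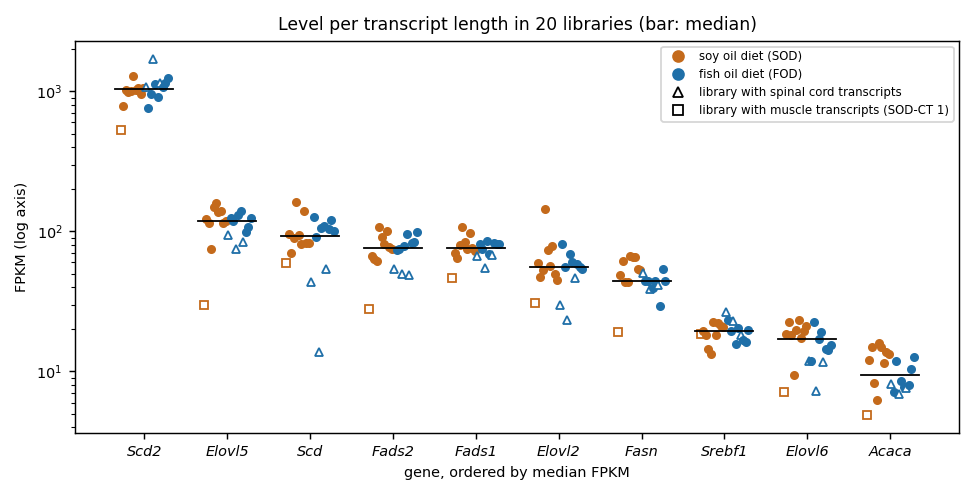
FPKM on a log axis for each gene in each of 20 libraries, ordered by median (bar). Orange marks the soy oil diet and blue the fish oil diet. Triangles are the 3 libraries with spinal cord transcripts and the square is SOD-CT replicate 1. Scd2, with a median of 1039 FPKM, lies above all points of the other genes.

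Scd and Scd2 are neighbouring genes with the same enzymatic function, and their windows before the gene start are shown because Scd was low and Scd2 was not in the spinal cord libraries described next. The RefSeq promoter table (build GRCr8) held a window for 7 of the 10 genes and none for Elovl6, Fasn and Acaca. Each run is the 250 bases before the annotated start, read 5′ to 3′ on the gene's strand, for Scd chr1:253231732-253231981 on the minus strand and for Scd2 chr1:253118127-253118376 on the plus strand. Capitals mark CCAAT, the letters bound by NF-Y, on either strand.
Scd: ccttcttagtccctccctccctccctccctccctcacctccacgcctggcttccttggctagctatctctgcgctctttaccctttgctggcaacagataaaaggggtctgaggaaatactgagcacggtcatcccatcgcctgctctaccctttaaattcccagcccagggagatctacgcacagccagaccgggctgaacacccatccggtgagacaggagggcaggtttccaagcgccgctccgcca
Scd2: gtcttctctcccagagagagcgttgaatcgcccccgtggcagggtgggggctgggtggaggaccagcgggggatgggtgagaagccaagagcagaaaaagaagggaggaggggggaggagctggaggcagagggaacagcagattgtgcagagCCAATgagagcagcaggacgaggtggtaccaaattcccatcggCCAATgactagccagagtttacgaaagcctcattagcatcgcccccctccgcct
Scd2 held CCAAT 2 times and Scd held none in this window. Over all 33469 windows of this length in the table, 34.0% held CCAAT on either strand. Among the members with a window, CCAAT was also found for Fads1, Elovl5 and both starts of Srebf1. GGGCGG, the SP1 letters, stood before Fads1, Fads2, Elovl2 and Srebf1 and in 30.5% of all windows. CACGTG, an E-box, stood before Elovl5 and in 5.59% of all windows. The sterol element letters TCACNCCAC occurred before no member and in 0.974% of windows, and the LXR DR4 element, read as an exact direct repeat, before no member and in 0.00299%. Letters overlapping between motifs were counted for each. These matches describe letters and not bound sites.

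In the 3 libraries with spinal cord transcripts, Scd measured 221 CPM in FOD-CT replicate 1, 247 CPM in FOD-CCI replicate 1 and 65.1 CPM in FOD-CCI-contra replicate 1. In the 16 libraries left after also setting SOD-CT replicate 1 aside, Scd ran from 341 to 715 CPM, so the groups of libraries did not overlap. Elovl2, the elongase of the last steps to DHA, was likewise 91.8 to 178 CPM in the 3 and 182 to 532 CPM in the 16. The other members overlapped. The share of all genes that lay apart between these libraries was not counted. Scd2 did not follow Scd: it measured 6147, 5909 and 9135 CPM in the same 3 libraries, and 3679 to 6624 CPM in the 16. Scd made up 0.797% to 4.51% of the summed FPKM of Scd and Scd2 in these 3 libraries. In the remaining 17 the share was 6.48% to 14.4%. All 3 of these libraries are from fish oil rats, so these differences enter each diet comparison below. The comparisons were also fitted with these libraries left out. That removes all else about those libraries too, so the part of the spinal cord transcripts was not tested. In SOD-CT replicate 1, 9 of 10 genes had their lowest CPM of all libraries, with 1676 CPM for Scd2, 109 for Fasn and 12.2 for Elovl5. Scd was the exception. On the FPKM scale, which the authors divided by a smaller total in that library, 7 of 10 were lowest there and Srebf1, at 18.6 FPKM, was within the range of its group.

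**Figure D2:**
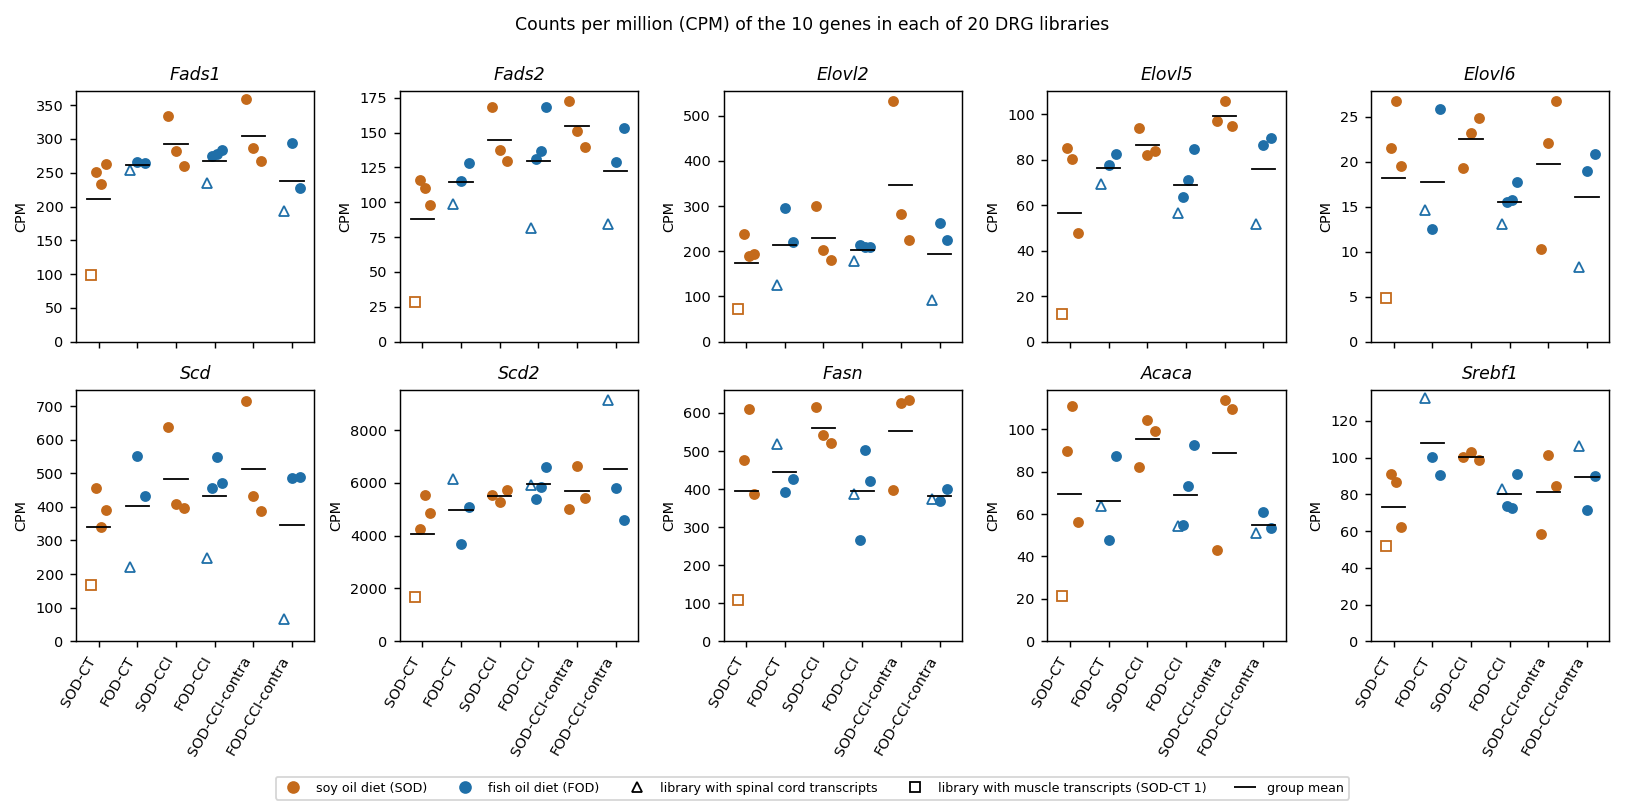
CPM of the 10 genes (vertical axes from 0) by group, one point per library, with the group mean as a bar. Triangles are the libraries with spinal cord transcripts and the square is SOD-CT replicate 1. In FOD-CCI, Fasn, Elovl6 and Srebf1 lie below all SOD-CCI points, while most other groups overlap.

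Whether fish oil changed these genes in injured DRG was read from FOD-CCI against SOD-CCI. No member was called, where a call needed an adjusted p no higher than 0.1 with a change of 1.2-fold or more, and none had an unadjusted p under 0.05, although 9 of 10 were lower on fish oil. Over all 14484 genes tested, 0% were called and 5.4% had an unadjusted p under 0.05 (edgeR quasi-likelihood test, Benjamini-Hochberg adjustment). The median log2 fold change of the members was -0.19, against 0.04 over all genes. Without SOD-CCI replicate 1, 5 of 10 members were lower, with a median of -0.07. The median was -0.12, with 7 lower, without FOD-CCI replicate 1, and -0.29 without FOD-CCI replicate 4. The left comparisons were made in 1 fit and share libraries.

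Elovl6, Fasn and Acaca had the values farthest below 0, followed by Elovl5 and Srebf1. Fasn measured 616, 542 and 522 CPM in the 3 SOD-CCI libraries and 387, 265, 503 and 422 CPM in the 4 FOD-CCI libraries. Each FOD-CCI library was below each SOD-CCI library on this scale, by little for replicate 3, and the group means were 560 ± 49.7 (SD, n = 3) and 394 ± 99.0 CPM (SD, n = 4). The fitted log2 fold change was -0.45 (SE 0.33, 95% interval -1.15 to 0.25, edgeR adjusted p = 0.862). On the FPKM scale the highest FOD-CCI library, at 54.2 FPKM, overlapped the lowest of SOD-CCI, at 53.2 FPKM.

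Elovl6 stood at 19.3, 23.2 and 24.8 CPM in SOD-CCI and at 13.0, 15.5, 15.8 and 17.8 CPM in FOD-CCI. The groups did not overlap on either scale, and the log2 fold change was -0.47 (SE 0.35, interval -1.22 to 0.29, edgeR adjusted p = 0.862). Srebf1 was at 100.4, 103.0 and 98.5 CPM in SOD-CCI and at 83.0, 73.9, 72.4 and 91.2 CPM in FOD-CCI. These groups too were apart on both scales, with a log2 fold change of -0.27 (SE 0.17, interval -0.64 to 0.11, edgeR adjusted p = 0.862). Acaca measured 82.1, 105 and 99.1 CPM in SOD-CCI against 54.5, 55.04, 73.3 and 92.4 CPM in FOD-CCI, where replicate 4 fell within the soy oil range. Its log2 fold change was -0.40 (SE 0.33, edgeR adjusted p = 0.867). Thus 3 of 10 members had all fish oil libraries below all soy oil libraries in CPM, and none had all above. Over all genes tested, 9.28% lay wholly below and 5.92% wholly above. On the FPKM scale the count was 2 below, where 7.16% of all genes were. Scd2 was wholly above on that scale, as 7.33% of all genes were, at 1083 to 1253 against 954 to 1065 FPKM.

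Without the libraries that hold spinal cord transcripts, the log2 fold changes were -0.44 for Fasn, -0.39 for Elovl6, -0.28 for Srebf1 and -0.31 for Acaca. Other tissue markers also differed in range: 3 of 4 red cell markers found in the file, each exceeding 1 CPM in the median library, summed to 22.5 to 141 CPM in SOD-CCI and 108 to 5724 CPM in FOD-CCI. The highest was FOD-CCI replicate 2, the library with the lowest Fasn. The 4 spinal cord astrocyte markers were apart, at 96.8 to 108 CPM in SOD-CCI and 110 to 1454 CPM in FOD-CCI. Replicates 2, 3 and 4 of FOD-CCI had 112, 110 and 142 CPM. Myelinating Schwann markers (8 of 8 above 1 CPM) overlapped, at 12650 to 34936 CPM in SOD-CCI and 17297 to 29280 CPM in FOD-CCI, as did neuron markers, at 16229 to 19404 and 12790 to 18515 CPM. Their part in the values of the members was not tested.

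The desaturases and the elongases of polyunsaturated fatty acids were read in the same comparison. Fads1 averaged 292 ± 38.2 CPM in SOD-CCI (n = 3) and 268 ± 22.1 CPM in FOD-CCI (n = 4), with a log2 fold change of -0.06 (interval -0.51 to 0.38). For Fads2 the change was -0.10 (interval -0.76 to 0.56), for Elovl2 -0.11 (interval -0.80 to 0.58) and for Scd -0.10 (interval -0.87 to 0.67). Scd2, the only member fitted as higher, had 0.17 (interval -0.40 to 0.74). These intervals hold changes of more than 1.2-fold both ways, so changes of that size cannot be told from none at this number of rats. Elovl5 was at 94.0, 82.0 and 83.6 CPM in SOD-CCI and 56.6, 63.8, 70.9 and 84.4 CPM in FOD-CCI, where replicate 4 overlapped, and its log2 fold change was -0.27 (SE 0.36, edgeR adjusted p = 0.933).

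In sham DRG the members leaned the other way, with 8 of 10 higher in FOD-CT than in SOD-CT, a median log2 fold change of 0.20 and -0.01 over all genes. The median was 0.062, with 3 members lower, without SOD-CT replicate 1, and 0.097 without the 4 libraries that hold most muscle or spinal cord transcripts (SOD-CT replicate 1, FOD-CT replicates 1 and 2 and FOD-CCI replicate 1). Leaving out these 4 keeps only 1 FOD-CT library, so that value has no spread on the fish oil side. No member was called and no gene of all tested was (0%), and 1 member, Srebf1, had an unadjusted p under 0.05, as did 3.39% of all genes. Srebf1 measured 51.9, 91.3, 87.0 and 62.2 CPM in SOD-CT and 133, 100.1 and 90.5 CPM in FOD-CT. The highest value was the FOD-CT library with spinal cord transcripts, the lowest the SOD-CT library with muscle transcripts, and the groups overlapped. The log2 fold change was 0.42 (SE 0.17, interval 0.05 to 0.79, edgeR adjusted p = 0.965). It was 0.17 once those 4 libraries were left out, with 1 FOD-CT library remaining. For the other members the fitted values ran from -0.13 for Acaca to 0.42 for Elovl5, each with an interval that included 0. No member had groups apart in CPM, while 0.787% of all genes were wholly below and 2.22% wholly above in FOD-CT.

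Averaged over sham and injured left DRG, 7 of 10 members were higher on fish oil, with fitted log2 changes between -0.28 for Elovl6 and 0.18 for Scd2. None was called and none had an unadjusted p under 0.05, beside 0% and 4.57% of all genes. The direction rested on single libraries: without SOD-CT replicate 1, 7 of 10 were lower, with a median of -0.017. In that fit 1 member had an unadjusted p under 0.05, and the share of all genes that did was not counted. Without FOD-CT replicate 2, 5 were lower, with a median of -0.042.

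**Figure D3:**
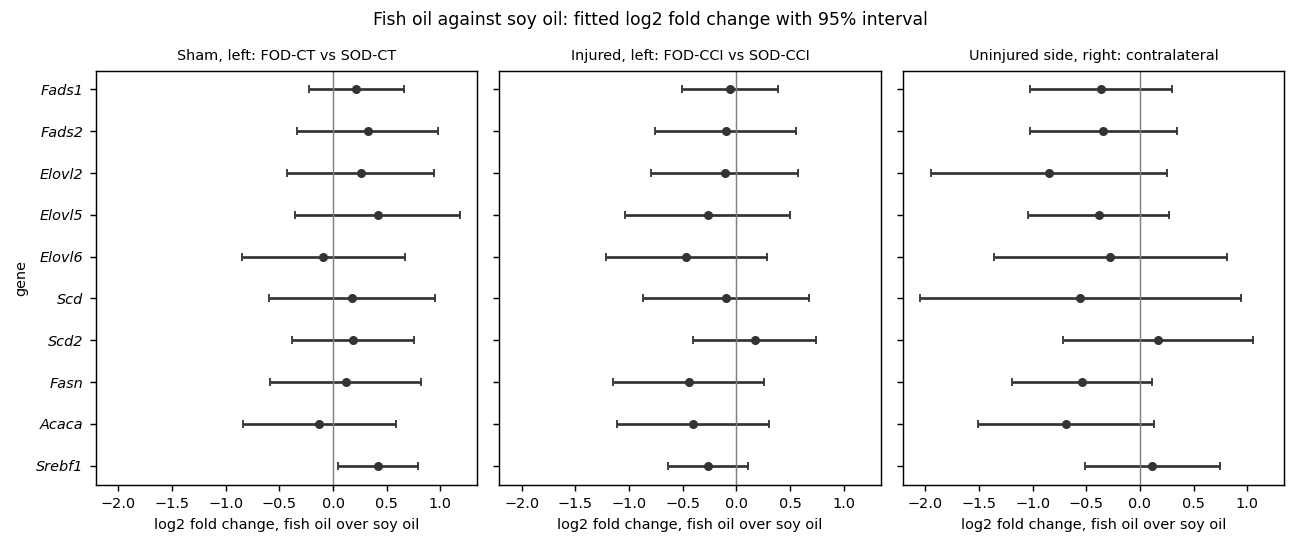
Fitted log2 fold change, fish oil over soy oil, for the 10 genes in sham, injured and contralateral DRG, with 95% intervals from edgeR. Every interval includes 0 except that of Srebf1 in sham DRG, 0.05 to 0.79. Fasn and Acaca lie left of 0 in injured and contralateral DRG.

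The contralateral DRG, on the side without ligatures, gave 8 of 10 members lower on fish oil, with a median log2 fold change of -0.37 against 0.02 over all 13590 genes tested. The median was -0.13 without FOD-CCI-contra replicate 1, the library with spinal cord transcripts. Without SOD-CCI-contra replicate 1 it was -0.29, with 9 members lower and 2 with an unadjusted p under 0.05. The share of all genes under 0.05 in that fit was not counted. With all 6 libraries no member was called and none of the 10 genes, each read from its main row, had an unadjusted p under 0.05, where 0% and 9.51% of all genes did. Fasn measured 396, 626 and 634 CPM in SOD-CCI-contra and 373, 368 and 400.0 CPM in FOD-CCI-contra. The fish oil libraries were close together, and the soy oil replicate 1 fell just below the highest of them. The log2 fold change was -0.54 (SE 0.29, interval -1.19 to 0.11, edgeR adjusted p = 0.569). Acaca followed the same libraries, with 43.01, 114 and 110 CPM on soy oil and 50.9, 60.9 and 53.4 CPM on fish oil, and a log2 fold change of -0.69 (SE 0.36, interval -1.51 to 0.13, edgeR adjusted p = 0.565). These rats are those of the injured comparison, so both sides are not independent samples.

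SOD-CCI-contra replicate 1, the low library for Fasn and Acaca, had the lowest summed Schwann markers of all libraries (8913 CPM) and the highest Elovl2, at 532 CPM, and Scd, at 715 CPM. Elovl2 was 282 and 224 CPM in the other soy oil libraries and 91.8, 263 and 225 CPM on fish oil, with a log2 fold change of -0.85 (SE 0.48, interval -1.94 to 0.25, edgeR adjusted p = 0.589). It was -0.35 without SOD-CCI-contra replicate 1, -0.49 without FOD-CCI-contra replicate 1, and -0.0033 without both. Elovl5 was the only member with groups apart in CPM, at 97.1, 106 and 94.7 on soy oil and 51.8, 86.3 and 89.7 on fish oil. That is 1 of 10 wholly below and none above, beside 8.85% and 8.43% of all genes, and on the FPKM scale the Elovl5 groups overlapped. The second Elovl5 row, 258 bases of model, was lower still, at 3.0, 6.2 and 4.1 CPM on soy oil and 1.5, 1.3 and 0.4 CPM on fish oil. Its log2 fold change was -2.07 (SE 0.63, interval -3.50 to -0.65, edgeR adjusted p = 0.503). This row was not among the 10 counted and had an unadjusted p under 0.05, and reads may be split between both rows of this gene.

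Markers of several cell types were apart between the contralateral groups. Neuron markers were lower on fish oil, at 3162 to 16368 CPM against 16545 to 18249 CPM on soy oil. Outside FOD-CCI-contra replicate 1, the fish oil sums were 15735 and 16368 CPM. The other sets that were apart were higher on fish oil. The 6 macrophage markers summed to 21.7 to 59.5 CPM on soy oil and 102 to 284 CPM on fish oil. Red cell markers summed to 23.3 to 61.3 and 174 to 883 CPM, and 6 satellite glia markers to 3077 to 4534 and 4757 to 5346 CPM. Oligodendrocyte markers reached at most 61.1 CPM on soy oil and were at least 77.6 CPM on fish oil. Their part in the members' values was not tested. With replicate 1 of both groups left out, a choice made after seeing the data, Fasn (-0.66, edgeR adjusted p = 0.0455) and Acaca (-0.92, adjusted p = 0.0169) were called, beside 10.9% of all genes (1575 of 14496), from 2 libraries per diet. The median of the members was then -0.14.

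Injury was read within each diet. On soy oil 10 of 10 members were higher in SOD-CCI than in SOD-CT, with a median log2 fold change of 0.36 (all genes -0.01). None was called and none had an unadjusted p under 0.05, beside 0% and 13.8% of all genes. The median was 0.18, with 1 member lower, without SOD-CT replicate 1, the muscle library. Fads2 measured 28.2, 116, 110 and 97.9 CPM in SOD-CT and 168, 137 and 129 CPM in SOD-CCI, with a log2 fold change of 0.64 (SE 0.31, interval -0.02 to 1.29, edgeR adjusted p = 0.369). Srebf1 had the other pair of groups apart, at a log2 fold change of 0.30 (SE 0.17, edgeR adjusted p = 0.439). These 2 of 10 were wholly above and none was wholly below, where 11.8% and 5.66% of all genes were. Markers were apart between these groups too, at 26.4 to 147 CPM in SOD-CT and 152 to 223 CPM in SOD-CCI for the 6 macrophage markers, each above 1 CPM in the median library. The 4 spinal cord astrocyte markers, 3 of them above 1 CPM, summed to 57.0 to 92.6 and 96.8 to 108 CPM. The part of these markers was not tested.

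On fish oil the members divided evenly, 5 higher and 5 lower in FOD-CCI than in FOD-CT. None was called (0% of all genes), and Srebf1, lower by a log2 fold change of -0.38 (SE 0.17, edgeR adjusted p = 0.9997), was the 1 member with an unadjusted p under 0.05, beside 4.52% of all genes. Its value was -0.15 without the 4 libraries named above, which leaves 1 FOD-CT library. It was -0.27 without FOD-CT replicate 1 and -0.36 with the replicate number as a block, and in neither was the unadjusted p under 0.05. Without FOD-CT replicate 1, 7 members were lower. No member had groups apart in CPM (2.54% of genes wholly below, 2.05% wholly above). On the FPKM scale Scd2 was wholly above, at 1083 to 1253 against 755 to 1080 FPKM, as 2.51% of all genes were. The 8 muscle markers summed to 661 to 20650 CPM in FOD-CT and 126 to 324 CPM in FOD-CCI, and their part was not tested.

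The difference of the injury effect between diets was tested as an interaction. It was below 0 for 10 of 10 members, with a median of -0.37 on the log2 scale (0.02 over all genes), and no member was called (0% of genes). Srebf1 had -0.69 (SE 0.24, interval -1.21 to -0.16, edgeR adjusted p = 0.894), the 1 member with an unadjusted p under 0.05, beside 5.01% of all genes. It was -0.45 without the 4 libraries named above, which leaves 1 FOD-CT library. The median was -0.17 without SOD-CT replicate 1 and -0.20 without the 4, with 9 members below 0 in each.

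Left and right DRG of the same rat were compared in 3 rats per diet. On soy oil no member was called, beside 0.131% of 14549 genes (19 genes), and none had an unadjusted p under 0.05, beside 8.48%. Elovl2 measured 301, 203 and 182 CPM on the injured left and 532, 282 and 224 CPM on the right of the soy oil rats. Its log2 fold change was -0.58 (SE 0.27, interval -1.19 to 0.03, edgeR adjusted p = 0.616). The log2 ratio of left to right CPM ran from -0.10 to -0.03 for Fads1 and -0.14 to -0.04 for Fads2. It ran from -0.37 to -0.05 for Elovl5 and 0.02 to 0.77 for Srebf1. Members not named here had ratios of both signs. The share of all genes with 1 sign in all 3 rats was not counted. With library totals alone, as in CPM, the median over all genes was 0.07, against 0.02 in the fit. On fish oil no member was called, beside 0.0137% (2 genes), or had an unadjusted p under 0.05, beside 6.96%. Scd had the value farthest from 0 there, 0.66 (SE 0.37), from 247, 457 and 550 CPM on the left and 65.1, 484 and 488 CPM on the right. Only the first rat, with spinal cord transcripts on both sides, differed by much, and without it the value was near 0, at 0.04.

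DESeq2, run as an alternative, also called no member in these 9 comparisons. Over all genes it called 0 for diet in sham DRG, 2 in injured DRG, 0 averaged over both and 202 in contralateral DRG. For injury it called 594 genes on soy oil and 21 on fish oil, for the interaction 42, and for left against right 472 and 264.

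Pearson r of log2 CPM between members was highest for Fads2 with Elovl5 (0.95 over 20 libraries), Fads1 with Fads2 (0.92) and Fads1 with Elovl5 (0.89). Over the 16 without the spinal cord and muscle libraries these were 0.68, 0.60 and 0.28. For Elovl6 with Acaca r was 0.89 over 20 and 0.80 over 16 libraries, and for Fasn with Acaca 0.87 and 0.77. Elovl2 with Scd had 0.86 and 0.80, and Elovl5 with Fasn 0.86 and 0.50. For Elovl6 with Scd the sign depended on the libraries used, with r = 0.51 over 20 libraries and -0.80 over 16. Members also varied with cell type markers over the 16 libraries. Summed myelinating Schwann markers had r of -0.86 with Scd, -0.65 with Elovl2, 0.65 with Elovl6, 0.39 with Acaca and 0.08 with Fasn. For fibroblast markers these were -0.79, -0.82, 0.69, 0.50 and 0.05. Red cell markers had -0.02, -0.28, -0.33, -0.55 and -0.80 with the same genes, and neuron markers 0.41, 0.36, 0.05, 0.25 and 0.58. Elovl5 had r of -0.72 with red cell and 0.67 with neuron markers. The part of tissue makeup in the pairs of members was not tested. These are descriptions, as 6 rats gave 2 libraries each and CPM values share each library's total.

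**Figure D4:**
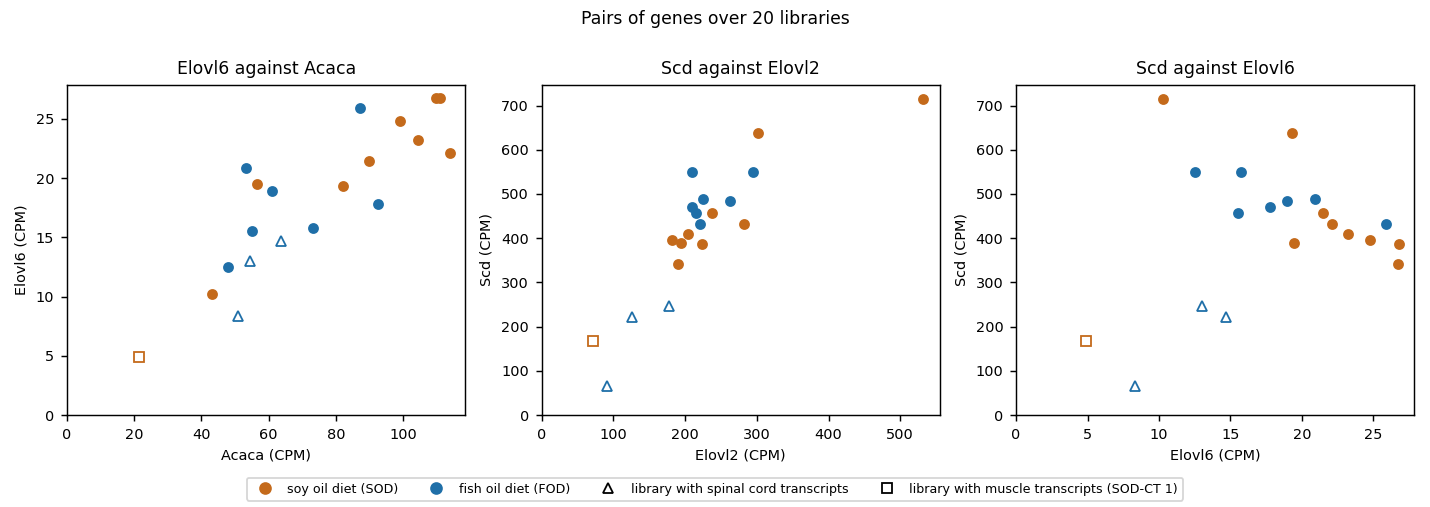
CPM of Elovl6 against Acaca, Scd against Elovl2 and Scd against Elovl6 in 20 libraries, axes from 0. Orange marks soy oil, blue fish oil, triangles the spinal cord libraries and the square SOD-CT replicate 1. The right panel falls from left to right among the filled points (r of log2 CPM = -0.80, n = 16). The open points lie below all filled points on the Scd axis and overlap them on the Elovl6 axis.

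The genes most like the mean profile of the 10 members, each scaled over the 20 libraries, were Lrrc8d (r = 0.98), Casc3 (0.97), RGD1561149 (0.97), Hid1 (0.96) and Fam171a1 (0.96). Over the 16 libraries these were 0.86, 0.75, 0.88, 0.73 and 0.79.

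The 3 lists of other genes of the pathway, each with 12 genes, gave no call in any of the 9 comparisons. For injury on soy oil, 2 of 10 tested genes of desaturation and elongation had an unadjusted p under 0.05, 1 higher and 1 lower. In the de novo lipogenesis list 4 of 10 did, 3 higher and 1 lower, beside 13.8% of all genes. Fads3 was higher by 0.97 (SE 0.28, edgeR adjusted p = 0.266) on soy oil and 0.74 (SE 0.29, edgeR adjusted p = 0.9997) on fish oil. Left against right it had 0.93 and 0.72. Of the 10 tested genes of desaturation and elongation, 6 were higher and 4 lower on fish oil averaged over left DRG, with a median of 0.04. Elovl7, an elongase of long saturated chains, had the smallest p, with -0.47 (SE 0.19, edgeR adjusted p = 0.987), followed by Tecr, the last enzyme of the elongation cycle, at 0.35 (SE 0.17), and Hsd17b12, its ketoreductase, at 0.20 (SE 0.15). Of 10 tested genes listed under de novo lipogenesis, 5 were higher and 5 lower. The smallest p were those of Mcat at 0.34 (SE 0.23), Acacb, the mitochondrial acetyl-CoA carboxylase, at -0.47 (SE 0.41) and Oxsm at 0.26 (SE 0.26). In the same list Acly was at -0.09 (SE 0.17), Acss2 at 0.08 (SE 0.16), Me1 at -0.07 (SE 0.30) and Slc25a1 at 0.07 (SE 0.18). Of 10 tested genes of SREBP and lipogenic control, 7 were higher and 3 lower, with Mbtps1, a protease that releases SREBPs, at 0.21 (SE 0.15), Srebf2, the sterol-responsive partner of Srebf1, at 0.21 (SE 0.17) and Rxra at 0.31 (SE 0.30).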

How the data were processed

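The submitters' notes name fastp, HISAT2 and featureCounts 1.5.0-p3 for trimming, alignment and counting; the genome build was not given in the sources used here, and whether counting used strand was unclear. The authors deposited raw counts per gene, and FPKM, whose denominator differed from the library total (0.628 of it in SOD-CT replicate 1). Counts were tested with edgeR 4.0.16 (quasi-likelihood, TMM) in R 4.3.3, on genes with at least 10 counts in 90% of the libraries fitted, with Benjamini-Hochberg adjustment over all genes. The left groups were 1 fit of 14 libraries and the right groups 1 fit of 6. Left against right was a fit of 12 libraries with rat as a block, since the library names give the rat; deviations of the 2 sides of a rat correlated at 0.15 to 0.50. A call needed an adjusted p no higher than 0.1 with a change of 1.2-fold or more. CPM used library totals, without TMM. The code was tested on simulated data. Alternatives were DESeq2 1.42.0, other scalings and filters, and libraries left out. Named genes were all members, the pathway genes called or with the 3 smallest p for diet in each list, and the 5 genes most like the members' profile. Fads3, Acly, Acss2, Me1 and Slc25a1 were named after seeing the data. Members and lists were chosen with earlier results of these data known. No per-sample column was left unused. The authors left 1 SOD-CCI and 1 FOD-CT sample out before sequencing.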

Additional observations from a re-analysis of the deposited data

Results flagged for a closer look

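Elovl2 in FOD-CCI replicate 1 was at 178 CPM, while the other 3 FOD-CCI libraries were at 210 to 215 CPM. Its gap to the nearest library was 0.875 of the group's range, above Dixon's 95% critical value for 4 samples. It was the 1 flag among 20 groups of 4 tested, and chance flags about 1 in 20. This library also had summed oligodendrocyte markers of 2251 CPM, and their part in the value was not tested.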

How the results depend on the processing

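No member was called in 9 comparisons under any alternative but 1: with replicate 1 of both contralateral groups left out, chosen after seeing the data, 2 members were called, and Fads2 (0.010), Scd (0.30), Scd2 (-0.16) and Srebf1 (-0.15) changed sign. Single gene values were recomputed for all members in the sham, injured and contralateral diet comparisons. For injury, the interaction and left against right, only selected members were followed, and for the averaged diet none. Of these 735 values, 702 counted as unchanged, 31 changed sign and 2 became calls. The 735 and the 702 include the 30 FPKM ratios described below, which carry no call. With the replicate block, which changed no member's call, Elovl6 in sham DRG was 0.0076. The replicate numbers link separate rats, and only FOD-CCI and FOD-CT samples of the same number deviated together in every pair (0.25 to 0.49). Leaving out the 2 spinal cord libraries gave 0.063 for Elovl6 in sham and, in injured DRG, 0.066 for Fads2 and 0.092 for Scd. Leaving out the 4 libraries with muscle or spinal cord transcripts gave 0.19 for Elovl6, -0.21 for Fasn and 0.029 for Acaca in sham, from 1 FOD-CT library. In injured DRG it gave 0.00021 for Fads1, 0.068 for Fads2 and 0.096 for Scd. The cause of these changes was not tested. With single libraries left out, the sham values ran from -0.13 to 0.56 for Elovl2, -0.46 to 0.099 for Elovl6, -0.20 to 0.50 for Scd, -0.14 to 0.34 for Fasn and -0.37 to 0.12 for Acaca. The injured values ran from -0.14 to 0.070 for Fads1, -0.25 to 0.067 for Fads2, -0.26 to 0.17 for Elovl2 and -0.24 to 0.18 for Scd. The contralateral values ran from -0.56 to 0.049 for Elovl6, -0.11 to 0.35 for Scd2 and -0.051 to 0.31 for Srebf1. Fasn, Elovl6, Acaca, Srebf1 and Elovl5 stayed below 0 in injured DRG under every alternative, at -0.59 to -0.30, -0.54 to -0.38, -0.57 to -0.31, -0.33 to -0.22 and -0.37 to -0.18. Scaling by library totals alone moved the median of all genes to 0.11 for injury on soy oil and to -0.16 for the interaction. With FPKM in place of CPM, the 30 ratios of group means moved by less than the spread between libraries. Groups of 3 or 4 rats limit what these tests can detect.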
